A study of Mus musculus with 6 samples.

Results

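Superoxide and peroxide detoxifying enzymes were followed in cultured mouse neural stem cells (NSCs) that carried a heterozygous mutation of Setd5 and in wild-type (WT) cells. The 10 genes were taken from the deposited table by their symbols, Sod1, Sod2, Sod3, Cat, Gpx1, Gpx4, Prdx1, Prdx3, Prdx5 and Txn2, out of 53110 genes listed. All 10 were among the 16266 genes with a mean normalized count of at least 10, which are called the tested genes here. The NSCs came from the telencephalic cortex of mouse embryos, the mutation was made with CRISPR-Cas9, and all 6 samples were cultured at 21% oxygen, 3 labelled WT and 3 labelled Setd5 +/-. The names of the mutant columns give a single clone, A3, and the sequenced libraries were made with the TruSeq RNA v2 kit from total RNA.

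Oxygen metabolism releases superoxide, mostly as a by-product of the respiratory chain. Superoxide dismutases turn it into hydrogen peroxide, which catalase, the glutathione peroxidases and the peroxiredoxins then reduce to water. Glutathione peroxidases draw their electrons from glutathione, and peroxiredoxins draw theirs from thioredoxins.

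The 3 samples of a genotype behaved as parts of 1 library. Gene counts were first turned into read pairs, since both ends of a pair are taken to be counted. On these, a chi-square statistic was divided by its degrees of freedom. It ranged from 0.961 to 0.986 for the 6 pairs of samples of 1 genotype and from 34.8 to 35.0 for the 9 pairs across genotypes. The values near 1 depend on the use of read pairs, since on reads the variance within a genotype was 1.94 times the mean. Of the nonzero counts of a sample, 58.3% to 59.6% were even. The samples of a genotype were therefore counted as 1 library, no p-value is given for any gene, and each difference carries a 95% counting interval, which covers counting error alone. The column names also give 1 index sequence and 1 lane for all WT samples and another of each for all Setd5 +/- samples. Genotype, clone, library, lane and culture cannot be told apart. The WT samples held 9995980 to 10004948 reads and the Setd5 +/- samples 7143309 to 7146147. Setd5 itself had normalized counts of 2498, 2749 and 2780.1 in WT and of 2151, 1989.9 and 2055 in Setd5 +/-, or -0.37 as a log2 fold change (-0.44 to -0.31), so the mutant samples all lay below the WT samples. None of the 10 enzyme genes lies on chromosome 1, whose tested genes had a median of 0.53 on the log2 scale. On the chromosomes of the enzyme genes this median lay between -0.11 and 0.02.

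Sod1, Prdx1 and Gpx4 have near-identical processed copies elsewhere in the genome, and stretches of these are shown first since they bear on how the counts of these genes can be read. A processed copy is an intronless insertion of an mRNA. For Gpx4 and Prdx1, each pair below is a stretch of 60 coding bases, 5′ to 3′, from the gene and from its copy (GENCODE annotation, GRCm38), chosen as the coding stretch with the most differences, and capitals mark the bases that differ. For Gpx4, the copy Gpx4-ps2 (chr10:45875291-45876086, + strand) differed at 2 of 509 aligned coding bases.

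Gpx4, coding bases 313 to 372: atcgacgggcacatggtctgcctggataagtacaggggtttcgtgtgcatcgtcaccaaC
Gpx4-ps2: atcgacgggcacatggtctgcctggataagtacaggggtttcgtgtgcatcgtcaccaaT

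The Prdx1 copy Gm21399 (chr8:129252998-129253594, + strand) differed at 10 of 597 coding bases.

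Prdx1, coding bases 166 to 225: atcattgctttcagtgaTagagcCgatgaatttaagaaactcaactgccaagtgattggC
Gm21399: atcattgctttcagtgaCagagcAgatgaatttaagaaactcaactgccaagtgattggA

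The Sod1 copy Gm8566 (chr6:67205619-67206083, + strand) differed at 10 of 462 coding bases.

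A read from a stretch in which gene and copy do not differ cannot be placed on one rather than on the other. Of all words of 50 bases in the main mRNA, 61.7% for Gpx4, 29.5% for Prdx1 and 23.1% for Sod1 occurred also in another annotated transcript. The share was 1.43% for Sod2, whose long mRNA holds pieces of repeats, and 0 for the other 6 enzymes. Gene values of Gpx4, Prdx1 and Sod1 are therefore given both alone and with their copies. Words found in no other transcript made up 38.3%, 70.5% and 76.9% of the words of these mRNAs, in this order. Yet their gene rows held only 3.72%, 30.4% and 21.3% of the joint WT reads. What placed the other reads on the copies, such as how the alignment treated reads across exon junctions, was not tested. A further copy of Gpx4, AC122253.3 on chromosome 17, which is 95.1% identical over 510 bases, was not analysed here, so the joint Gpx4 value covers 1 copy.

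The superoxide dismutases moved in opposite directions. Sod3 was the gene of the 10 with the largest difference, higher in Setd5 +/-, while Sod2 was 1.98-fold lower and Sod1 had a smaller difference. Sod2 (chr17:13006846-13040063, + strand), the manganese enzyme of the mitochondrial matrix, had normalized counts of 921, 946 and 910.1 in WT and of 453, 473 and 474 in Setd5 +/-. Every mutant sample was well below every WT sample, and the log2 fold change was -0.99 (-1.12 to -0.85), from 3354 and 1175 reads. Only 6.26% of the tested genes had a lower log2 fold change than Sod2.

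Sod3 (chr5:52363791-52371418, + strand) encodes the secreted copper and zinc enzyme that acts in the extracellular matrix. Its normalized counts were 114, 96.8 and 97.7 in WT and 535, 487 and 536 in Setd5 +/-. The groups were far apart, with a log2 fold change of 2.32 (2.09 to 2.55) from 373 and 1308 reads, and 97.9% of the tested genes had a lower log2 fold change. Within each sample, the ratio of Sod3 to Sod2 was 0.124, 0.102 and 0.107 in WT and 1.18, 1.03 and 1.13 in Setd5 +/-. These ratios of counts do not depend on how the samples were scaled, and they are not corrected for the length of the mRNAs.

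Sod1 (chr16:90220754-90226329, + strand), the copper and zinc enzyme of the cytosol, had normalized counts of 305, 286 and 305 in WT and of 232, 194 and 225 in Setd5 +/-. The mutant samples lay below the WT samples, with a log2 fold change of -0.46 (-0.66 to -0.25). Its copy Gm8566 held more reads than the gene, with 1061, 1114 and 1127 normalized counts in WT and 827, 749 and 795 in Setd5 +/-, also without overlap. With the copy added, the log2 fold change was -0.47 (-0.57 to -0.38), close to the value of the gene alone. The gene row held 21.3% of the joint reads in WT and 21.6% in Setd5 +/-.

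Summed over the 3 dismutases, normalized counts were 1341, 1329 and 1313 in WT and 1220.4, 1154 and 1235 in Setd5 +/-, a log2 fold change of -0.14 (-0.23 to -0.05). The sum of these 3 gene rows thus differed far less than its parts. It leaves out the Sod1 copy Gm8566, which was also lower, with means of 1101 in WT and 790 in Setd5 +/-. Of that sum Sod3 made up 7.28% to 8.53% per WT sample, against 42.2% to 43.8% per Setd5 +/- sample. Sod2 made up 68.7% to 71.2% in WT and 37.1% to 41.0% in Setd5 +/-. These shares are of counts per gene, with no correction for mRNA length and without the copy of Sod1.

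**Figure D1:**
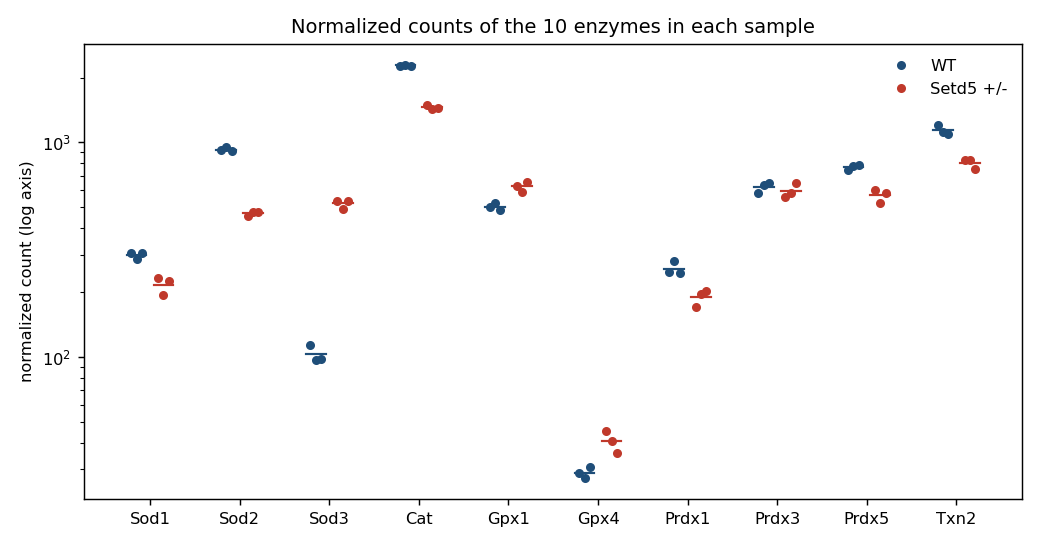
Normalized counts on a log axis for the 10 enzymes in each of the 6 samples, with points for samples and short lines for the mean of each genotype. Sod3 stands well above WT and Sod2 and Cat well below it in the Setd5 +/- samples, while the Prdx3 samples overlap.

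Catalase and the glutathione peroxidases, which share hydrogen peroxide as substrate, also differed in direction. Cat (chr2:103453849-103485160, - strand), the heme enzyme of peroxisomes, had normalized counts of 2262, 2299.9 and 2279 in WT and of 1493, 1430.2 and 1443 in Setd5 +/-. The samples did not overlap, and the gene was 1.57-fold lower, a log2 fold change of -0.65 (-0.73 to -0.57) from 8260 and 3665 reads. The interval reached across the 1.5-fold line at 0.58 on this scale.

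Gpx1 (chr9:108338903-108340343, + strand) encodes the selenium-containing glutathione peroxidase of cytosol and mitochondria. It had normalized counts of 498, 524 and 484 in WT and of 627, 588 and 654 in Setd5 +/-, so the mutant samples were all higher, with a log2 fold change of 0.31 (0.18 to 0.45). Within each sample the ratio of Cat to Gpx1 was 4.55, 4.39 and 4.71 in WT and 2.38, 2.43 and 2.21 in Setd5 +/-. In the same way the ratio of Gpx1 to Sod2 was 0.542 over the WT reads and 1.34 over the Setd5 +/- reads.

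Gpx4 (chr10:80047166-80056439, + strand), which reduces lipid hydroperoxides in membranes, had the fewest reads of the 10 genes, 105 in WT and 102 in Setd5 +/-. Its normalized counts were 29.0, 27.3 and 30.6 in WT and 45.3, 40.5 and 35.7 in Setd5 +/-. The mutant samples were all higher, but the interval of the log2 fold change of 0.47 ran from -0.08 to 1.02 and held 0. The row of its copy Gpx4-ps2 held 793, 750.4 and 711 normalized counts in WT and 757, 907 and 828 in Setd5 +/-, far above the gene, and the samples overlapped. The gene row held only 3.72% of the joint reads in WT and 4.65% in Setd5 +/-. Joined, gene and copy gave 0.16 on the log2 scale (0.05 to 0.27) with overlapping samples, so the level of Gpx4 cannot be read from its own row.

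The peroxiredoxins reduce peroxides with a cysteine that thioredoxins restore. Prdx1 (chr4:116685544-116700822, + strand), a cytosolic member, had normalized counts of 248, 281 and 246 in WT and of 172, 196 and 204 in Setd5 +/-. The groups did not overlap and the log2 fold change was -0.44 (-0.66 to -0.22). Its copy Gm21399 held 559.7, 592 and 579.7 normalized counts in WT and 557, 455 and 512 in Setd5 +/-, and a further copy, Gm7204, held means of 13.2 and 12.7. Gene and copies together gave 814, 887 and 845 against 745, 666 and 723, a log2 fold change of -0.25 (-0.37 to -0.14), which kept the direction and the gap between genotypes at a smaller size.

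Prdx3 (chr19:60864051-60874556, - strand) is the peroxiredoxin of the mitochondrial matrix. Its normalized counts were 578, 632 and 647 in WT and 559, 579 and 646 in Setd5 +/-. It was the only one of the 10 whose samples overlapped, with a log2 fold change of -0.06 (-0.19 to 0.07). Prdx5 (chr19:6906697-6910106, - strand), found in mitochondria, peroxisomes and cytosol, had 745, 774 and 788 in WT and 598, 523 and 584 in Setd5 +/-. All mutant samples were lower, with a log2 fold change of -0.44 (-0.56 to -0.31). Exons of Prdx5 overlap those of Trmt112 on the opposite strand, and whether the counting used strand is not given in the sources used here. Trmt112 had a log2 fold change of 0.12 (-0.15 to 0.39).

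Txn2 (chr15:77915047-77929006, - strand) encodes mitochondrial thioredoxin, the electron donor of Prdx3. Its normalized counts were 1201, 1121 and 1091 in WT and 829.5, 826 and 748 in Setd5 +/-. The groups did not overlap, with -0.50 on the log2 scale (-0.61 to -0.40), or 1.42-fold lower. The ratio of Txn2 to Prdx3 was 2.08, 1.77 and 1.69 in WT, against 1.48, 1.43 and 1.16 in Setd5 +/-. Of these genes for mitochondrial matrix enzymes, Sod2 and Txn2 were therefore lower in transcript counts by measurable amounts where Prdx3 was not. The 3 genes together had 2648 to 2699.99 normalized counts in WT and 1841 to 1878 in Setd5 +/-. That sum leaves out Gpx1 and Prdx5, which are found in mitochondria and elsewhere, at 0.31 and -0.44 on the log2 scale.

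Across the 10 enzymes, 7 had a log2 fold change below 0 and 3 above 0, where 51.1% of all tested genes lay below 0. Their median was -0.44, beside -0.02 for all tested genes. A fold of at least 1.5 was reached downward by 2, Sod2 and Cat, where 15.5% of all tested genes reached it, and upward by 1, Sod3, where 19.7% did, so that both counts were near the background. The 3 mutant samples lay below all WT samples in 6 of the 10, beside 32.9% of the tested genes, and above them in 3, beside 32.4%. The limma test called 6 lower and 2 higher, beside 30.9% and 30.3% of the tested genes, and did not call Gpx4 and Prdx3. This test compares the reads of 2 libraries, not the genotypes. Summed over all 10, normalized counts were 6878 to 6988 in WT and 5337 to 5549 in Setd5 +/-, and Cat alone made up 32.8% to 33.1% of the sum in WT and 26.0% to 26.9% in Setd5 +/-.

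**Figure D2:**
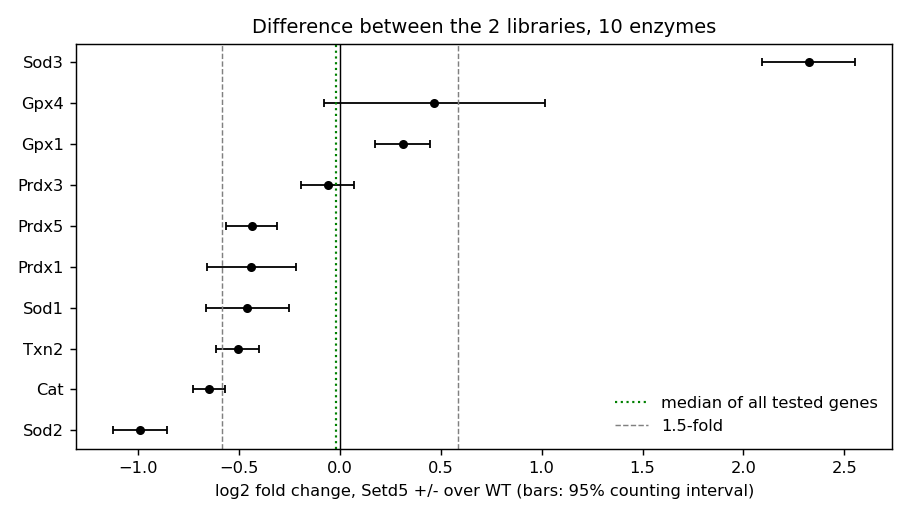
Log2 fold change of each enzyme gene in Setd5 +/- over WT, with 95% counting intervals, the median of all tested genes (dotted) and 1.5-fold lines (dashed). Sod2 at -0.99 and Cat at -0.65 lie past the lower line and Sod3 at 2.32 past the upper one, and the intervals of Prdx3 and Gpx4 cross 0.

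**Figure D3:**
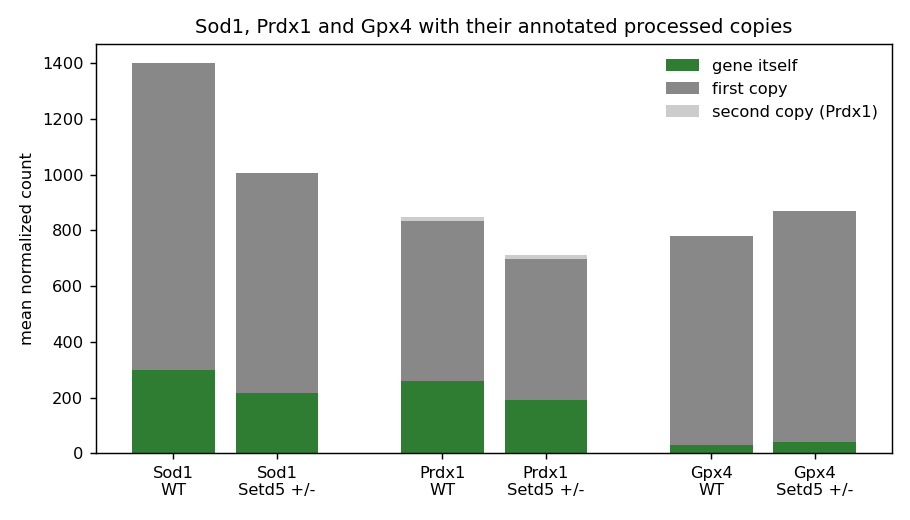
Mean normalized count of Sod1, Prdx1 and Gpx4 (green) with those of their annotated copies stacked on top (grey), in WT and Setd5 +/-. The copies hold most of the joint counts, and the gene itself holds 3.72% of the joint Gpx4 reads in WT.

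Levels of the gene rows, without the reads on copies, were compared per kilobase of the main mRNA. In WT the order was Prdx5 at 1019 normalized counts per kilobase, Txn2 at 876, Cat at 873, Gpx1 at 468, Sod1 at 466, Prdx3 at 419, Prdx1 at 295, Sod2 at 158, Gpx4 at 29.1 and Sod3 at 27.6. Neighbours whose counting intervals did not separate them were Txn2 and Cat, Gpx1 and Sod1, and Gpx4 and Sod3. In Setd5 +/- the order was Prdx5 at 753, Txn2 at 617, Gpx1 at 581, Cat at 557, Prdx3 at 402, Sod1 at 339, Prdx1 at 217, Sod3 at 139, Sod2 at 79.6 and Gpx4 at 40.7, and Txn2 and Gpx1, and Gpx1 and Cat, were not separated. Sod3 thus stood above Sod2 in Setd5 +/- and below it in WT on this scale. With all annotated exons as the length instead, Cat was the highest in both libraries, at 873 and 557, and Sod3 at 139 again stood above Sod2 at 46.6 in Setd5 +/-. The levels of Gpx4, Prdx1 and Sod1 exclude the reads on their copies, so the places of these genes in the orders are not settled. In WT their mean normalized counts were 29.0, 258 and 299 for the gene row alone. With the copies added they were 780, 849 and 1399.

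The upstream sequences are shown for Sod2 and Cat, the enzymes lower by at least 1.5-fold, and for Prdx1, which holds the core of the antioxidant response element, the site that NRF2 binds. They come from RefSeq (GRCm38.p6), which gave a promoter for 9 of the 10 genes, Sod3 not among them. Each runs 5′ to 3′ from 250 bases upstream of the RefSeq start and stops before the next annotated exon. For Sod2, GENCODE also annotates a transcript that starts farther upstream, so this window lies within the gene span given above, in an intron of that transcript. Capitals mark matches, on either strand, to 3 motifs: GGGCGG, the GC box bound by SP1; CCAAT, the site of NF-Y; and TGACNNNGC, the antioxidant response core.

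Sod2, chr17:13007589-13007816, + strand: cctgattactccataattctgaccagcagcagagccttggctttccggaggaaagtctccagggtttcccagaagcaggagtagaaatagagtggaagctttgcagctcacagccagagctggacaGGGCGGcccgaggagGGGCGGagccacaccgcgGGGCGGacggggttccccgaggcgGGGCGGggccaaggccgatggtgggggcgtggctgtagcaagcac
Cat, chr2:103485161-103485403, - strand: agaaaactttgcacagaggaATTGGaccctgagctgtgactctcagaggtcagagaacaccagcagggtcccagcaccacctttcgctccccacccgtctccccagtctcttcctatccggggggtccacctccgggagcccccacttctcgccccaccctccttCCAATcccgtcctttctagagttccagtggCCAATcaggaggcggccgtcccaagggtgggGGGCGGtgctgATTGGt
Prdx1, chr4:116685349-116685543, + strand: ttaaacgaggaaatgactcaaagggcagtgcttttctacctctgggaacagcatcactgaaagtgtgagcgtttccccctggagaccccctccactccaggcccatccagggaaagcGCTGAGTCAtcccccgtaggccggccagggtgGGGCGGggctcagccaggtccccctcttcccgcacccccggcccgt

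The Sod2 window held 4 GC boxes between 124 and 62 bases upstream of its start, and the Cat window held 1 GC box and 4 CCAAT matches, none overlapping another motif. The Prdx1 window held its antioxidant response core at 133 to 125 bases upstream, on the reverse strand. Counted over the whole 250 bases, the antioxidant response core was found in 2 of the 9 genes, Sod1 and Prdx1, and in 10.2% of the 32851 promoters in the RefSeq table. A GC box was found in 8 of the 9, Gpx4 counted over any of its starts, and in 32.7% of all promoters. A CCAAT match was found in 5 of the 9 and in 33.8% of all. A match is a description of letters and not a bound site.

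The wider thiol system was measured as a list of 16 genes, all tested, which holds the other peroxiredoxins, thioredoxin and its reductases and inhibitor, sulfiredoxin, sestrins and glutaredoxins. Of these 6 were lower by at least 1.5-fold, namely Prdx2, Txn1, Txnrd3, Glrx, Glrx3 and Glrx5, beside 15.5% of all tested genes, and 3 were higher, namely Prdx4, Sesn3 and Txnip, beside 19.7%, a share near that background. The median was -0.16. Txn1, the cytosolic thioredoxin, had normalized counts of 1269.6, 1339 and 1254 in WT and of 503, 481 and 496 in Setd5 +/-, without overlap. Its log2 fold change of -1.38 (-1.51 to -1.26), 2.61-fold lower, was the largest fall of the list. Txnip, which binds and inhibits thioredoxin, had the largest rise, from 367, 506 and 459 to 1254, 1163 and 1219.8, a log2 fold change of 1.45 (1.33 to 1.57).

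Thioredoxin reductases return thioredoxin to its reduced form. Txnrd1, the cytosolic one, had a log2 fold change of -0.32 (-0.41 to -0.24), and Txnrd2, the mitochondrial one, had means of 146 and 212 normalized counts, or 0.53 on the log2 scale (0.29 to 0.77), short of the 1.5-fold line. In the mitochondrial chain of Txnrd2, Txn2 and Prdx3 the 3 genes thus had values above, below and near 0. Srxn1, which repairs overoxidised peroxiredoxins, had overlapping samples, at -0.16 on the log2 scale (-0.45 to 0.13). The other peroxiredoxins differed among themselves. Cytosolic Prdx2 had normalized counts of 784, 764 and 794 in WT and of 445, 492 and 456 in Setd5 +/-, a log2 fold change of -0.75 (-0.89 to -0.61). Prdx4, the peroxiredoxin of the endoplasmic reticulum, rose from 378, 357 and 354 to 596, 604 and 577, with 0.70 (0.55 to 0.85). Prdx6, which lies on chromosome 1, had 0.26 (0.18 to 0.34).

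Of 7 further genes of the glutathione branch, 4 were tested, and Gpx2 and Gpx6 were at 0 in every sample. Of the 4, 1 was lower and 1 higher by at least 1.5-fold, beside 15.5% and 19.7% of all tested genes. Gpx3, the plasma glutathione peroxidase, fell from 247, 233 and 259 to 137, 154 and 124, with -0.83 (-1.08 to -0.58). Gpx7, a peroxidase of the endoplasmic reticulum, rose from 188, 192 and 177 to 561, 578 and 574, with 1.61 (1.43 to 1.80). Gsr, the reductase that restores glutathione, had overlapping samples and 0.03 (-0.11 to 0.17).

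Of 7 genes that supply the dismutases with copper or move manganese, 6 were tested. Of the 6, 2 were lower by at least 1.5-fold and 2 higher, beside 15.5% and 19.7% of all tested genes. Ccs, the chaperone that loads copper into SOD1, had 205, 206 and 215 normalized counts in WT and 122, 155 and 122 in Setd5 +/-, a log2 fold change of -0.65 (-0.91 to -0.39). Slc31a1, the copper importer, had the largest rise, with means of 1115 and 2669 and a log2 fold change of 1.26 (1.18 to 1.34). Slc30a10, a manganese exporter on chromosome 1, had the largest fall among the tested genes of this list, with means of 472 and 266 normalized counts and a log2 fold change of -0.82 (-1.001 to -0.64). Sod1 and Ccs were thus both lower, and the importer was higher.

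Gpx1 and Gpx4 hold selenocysteine, which needs a machinery of its own, and the culture medium was supplemented with selenite. None of the 9 genes of that machinery reached 1.5-fold in either direction, where 15.5% of all tested genes did downward and 19.7% upward. The median of the 9 was -0.26. The largest fall was that of Secisbp2, which binds the selenocysteine insertion element, at -0.54 (-0.73 to -0.35). The largest rise was that of Scly, which recycles selenium and lies on chromosome 1, at 0.25 (-0.03 to 0.52). Of 15 other selenoproteins, 13 were tested, with a median of -0.03. Of the 13, 3 were lower by at least 1.5-fold and 2 higher, beside 15.5% and 19.7% of all tested genes. Dio2, a deiodinase that activates thyroid hormone, had the largest fall, -1.10 (-1.54 to -0.65), and Selenon, of the endoplasmic reticulum, the largest rise, 1.05 (0.94 to 1.15).

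**Figure D4:**
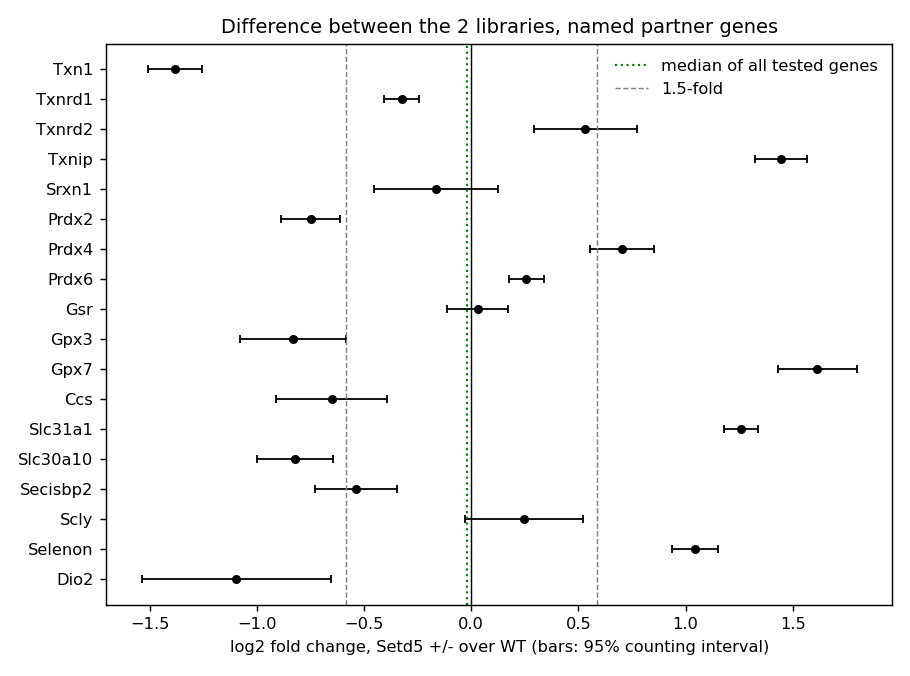
Log2 fold change in Setd5 +/- over WT of partner genes chosen from those named in the text, with 95% counting intervals. Genes are ordered by role from the thioredoxin system at the top to the selenoproteins at the bottom. Txnrd3, Glrx, Glrx3, Glrx5 and Sesn3 are not plotted. Txn1 at -1.38 and Gpx7 at 1.61 are the extremes of the genes plotted.

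Markers of the cell types a culture could hold were measured beside these genes. All 8 neural stem cell markers were tested, with a summed level of 73826 to 74037 normalized counts in WT and of 53518 to 54183 in Setd5 +/-, and Fabp7 was lower and Vim higher by at least 1.5-fold. Without Fabp7 the other 7 summed to 37805 to 38097 in WT and to 41950.2 to 42799 in Setd5 +/-, so the lower sum rested on Fabp7, and 4 of the 8 markers had a log2 fold change above 0. Of 5 astrocyte markers 4 were tested, Gfap, Aqp4 and S100b higher and Aldh1l1 lower by at least 1.5-fold, with sums of 799 to 818 in WT and 1239 to 1402 in Setd5 +/-. Of 6 neuron markers 3 were tested, with sums of 479 to 498 and of 238 to 272, Dcx lower and Neurod6 at 0. Of 6 oligodendrocyte markers 4 were tested, with sums of 1576 to 1699 and of 1864 to 1971, and Mbp and Sox10 were lower. No mesenchymal marker was tested and Lum was at 0. Of the microglial markers Cx3cr1, Ptprc and Itgam were at 0, with sums of 78.6 to 117 and of 48.9 to 70.3 that were mostly Csf1r, the 1 tested, which was lower by at least 1.5-fold with means of 98.0 and 53.6. The endothelial sums were 9.11 to 16.5 and 13.1 to 26.2, and Kdr, the 1 tested, was higher with means of 6.35 and 17.9. The part of these cell states in the values of Sod3, Sod2, Cat and the other enzymes was not tested. In bulk samples, fewer cells of a type and less RNA per cell cannot be told apart.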

How the data were processed

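RNA-seq of NSCs at 21% oxygen was analysed in 6 samples. Per the submitters' processing notes and the study's methods, the authors used Trimmomatic, Bowtie2 (mm10) and DESeq2. The counting program, its strand setting and tool versions are not given in the sources used here. The deposited values are normalized counts, the reads of a gene divided by the size factor of the sample. Their decimal points had been lost, and were restored from the value of 1 read in each sample (0.827 to 0.829 in WT, 1.19 in Setd5 +/-). This was done for 52438 genes, and 672 further genes had no values. The deposited mean placed the point in 13731 genes, and 648 stayed ties. All 6 value columns were used. The authors' own comparison columns (log2 fold change, its standard error, the statistic, p and adjusted p) were not used.

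Fold changes are on log2(mean normalized count + 1), for genes with a mean of at least 10. Intervals (95%) assume a variance of 1.94 times the mean, measured within genotypes on reads, not on read pairs. They cover counting error only, so they say nothing of other cultures or clones. limma 3.58.1 (R 4.3.3; Benjamini-Hochberg over 16266 genes, threshold 0.05) was used for counts of calls. Scripts were tested on simulated data. Copies were searched with blastn 2.17.0 in GENCODE transcripts of GRCm38, at 95% identity over at least 50% of the mRNA, for the 10 enzymes and not for their partners.

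Named genes were Setd5, the 10 enzymes, their annotated copies, the tested gene with the largest fall and rise in each partner list, and the direct partners Txn1, Txnrd1, Txnrd2, Srxn1, Gsr, Ccs, Prdx2, Prdx4 and Prdx6. Trmt112 and the genes past 1.5-fold listed by name were chosen after their values were seen. The enzymes and lists were chosen with earlier results of these data known. Alternatives were a fold of 2, other pseudocounts, minimum means and scalings, each sample left out, and a replicate block. Some items that these rules select are not reported here.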

Additional observations from a re-analysis of the deposited data

How the results depend on the processing

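In the 11 alternative settings run for each, the log2 fold changes of all 10 enzymes kept their sign and their side of the 1.5-fold line. Gpx4, Prdx1 and Sod1 did so with their copies added. The settings that left out 1 sample dropped only a part of 1 library, so they bear on counting error alone. For Prdx3 and the gene row of Gpx4 the interval held 0, so the kept sign settles no direction. Sod2 ranged from -1.03 to -0.94, Cat from -0.69 to -0.61 and Sod3 from 2.23 to 2.41. With a fold of 2 in place of 1.5, the number of enzymes lower was 0, since Sod2 was 1.98-fold lower, close to that line. The median of all tested genes lay between -0.06 and 0.03 under the scalings tried. Replicate numbers are shared by the genotypes in the labels but mark no shared culture. With the replicate block, limma again called 6 enzymes lower and 2 higher, and 5012 and 4934 of all tested genes. Adding the reads of the annotated copies, an alternative chosen after seeing the data, gave 0.16 for Gpx4, -0.25 for Prdx1 and -0.47 for Sod1. Depth limits Gpx4 most, with 105 and 102 reads.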

Other observations

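Genes that produce superoxide or hydrogen peroxide were mostly below the minimum mean. Of 18 listed, 7 were tested, and Nox3, Cybb and Noxa1 were at 0 in every sample. Aox1, an aldehyde oxidase on chromosome 1, had the largest rise, from 51.4, 52.1 and 48.9 to 330.1, 366 and 322, at 2.72 (2.40 to 3.03).

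All 16 genes of peroxisome biogenesis were tested, with a median of -0.16. Of the 16, 1 was lower and 1 higher by at least 1.5-fold, beside 15.5% and 19.7% of all tested genes. Pex11a, which promotes peroxisome division, fell from 281, 265 and 237 to 136, 124 and 161, at -0.89 (-1.14 to -0.65). Its relative Pex11g rose from 23.2, 18.2 and 29.8 to 64.4, 35.7 and 41.7, at 0.96 (0.41 to 1.52). The remaining 14 genes, the import and membrane factors that a peroxisome needs to hold catalase, lay within 1.5-fold.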
